A study of Gallus gallus with 60 samples.

Results

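The miR-10 and miR-196 microRNAs of the chicken were followed from the whole embryo at E5 to pectoral muscle at Y12, and in 5 other tissues of the adult bird. Members were the miRNAs whose names begin with gga-miR-10a, gga-miR-10b, gga-miR-10c or gga-miR-196. This gave 7 miRNAs of the 890 listed for embryos and muscle, and the same 7 of the 707 listed for the other tissues. They were gga-miR-10a-5p, gga-miR-10a-3p, gga-miR-10b-5p, gga-miR-10b-3p, gga-miR-196-5p, gga-miR-196-1-3p and gga-miR-196-2-3p, and 0 names began with gga-miR-10c. The suffixes 5p and 3p name the arms of a hairpin from which the mature miRNA is cut.

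All 60 samples came from Tibetan chickens, with 3 samples in each of 20 groups, and no group carried a treatment or an altered gene. In the stage names, E counts days of incubation, D days from hatching and Y years of age. Whole embryos were taken at E5 and E7, which the sample labels call pectoral muscle and the methods of the study call the entire embryo. Pectoral muscle was taken at 13 stages, which were E9, E12, E15, E18 and E20 before hatching, D1, D36, D100 and D300 after it, and then Y3, Y5, Y8 as well as Y12. At D300, 5 more tissues were taken, namely brain, kidney, liver, ovary and spleen. The group called Y3 here follows the labels, while the methods give it a younger age. The sources do not say which samples came from the same bird, so p-values measure the spread between these samples. The study placed E9 and E12 in an early embryonic period (Pre_E, 6 samples), E15, E18, E20 and D1 in a late embryonic period (Lat_E, 12 samples), and D36 to Y12 in a postnatal period (Bir_G, 21 samples). It formed these periods by clustering the same samples.

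A microRNA is a short RNA that guides a silencing complex to matching sites in messenger RNAs, mainly through the bases near its 5′ end. Hox genes encode transcription factors that set position along the body axis, and they lie in clusters in which the order of the genes follows the order of the body regions they pattern. The miR-10 hairpins lie among Hox genes of more anterior regions and the miR-196 hairpins among those of more posterior regions, and both families target Hox messenger RNAs. In mouse, miR-196 is known to direct the cleavage of the HOXB8 messenger RNA, and in chick embryos its knockdown alters the identity of vertebrae. Mature miR-10a and miR-10b differ at a single central base.

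The RefSeq annotation of GRCg7b places all 5 hairpins among HOX genes, and the names below come from that annotation. The gga-mir-10a hairpin (MIR10A) lies within the span of HOXB3 and next to HOXB4. The gga-mir-10b hairpin (MIR10B) lies within the span of HOXD3, between HOXD4 and HOXD8. The gga-mir-196-1 hairpin (MIR196A1) lies between HOXB13 and HOXB8, gga-mir-196-2 (MIR196B) lies within the span of HOXA9 and next to HOXA10, and gga-mir-196-3 (MIR196A2) lies between HOXC9 and HOXC10. The HOXB cluster thus holds a hairpin of each family, and the HOXD cluster holds miR-10b. The name gga-miR-196-5p carries no hairpin number, so its reads were not separated by hairpin. The number of mismatches allowed when reads were assigned to mature miRNAs is not given in the sources used here, so a part of the reads of miR-10a-5p and miR-10b-5p may have been exchanged. For that reason their 3p arms are given beside them in a part of the comparisons.

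The deposited values were reads scaled to 1000000 reads of the library (RPM). Whole reads were recovered in 56 of the 60 samples, and the library totals were 9347754 to 13060558 reads with a median of 10722846. A level of 3 reads corresponded to 0.230 to 0.321 RPM, and this counting limit covers no other source of error. The miRNAs listed in Kidney-1 summed to 410664 RPM, against 788209 and 847464 RPM in Kidney-2 and Kidney-3. E9-3 stood above the other early muscle samples for most members, and the results that rest on it are given with and without it. The muscle markers fixed for the tissue check (gga-miR-1a-3p, gga-miR-133a-3p, gga-miR-206 and gga-miR-499-5p) summed to 374480 to 393778 RPM in D300 muscle, to 2005 to 4130.1 RPM at E5 and to at most 3592 RPM in the other tissues. gga-miR-122-5p was at 6374 to 7494 RPM in liver, and the neuronal markers gga-miR-124a-3p and gga-miR-9-5p summed to 47359 to 63190 RPM in brain.

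The guide arms of miR-10 were among the most abundant miRNAs in nearly every group. gga-miR-10b-5p ranked between 1 and 27 by mean level among the 548 known miRNAs of both tables in 17 of the 20 groups, and gga-miR-10a-5p ranked between 2 and 21 in 19 of them. gga-miR-196-5p was lower and ranked between 25 and 239. The 3p arms were far below their partners. gga-miR-10a-3p reached 527 RPM, gga-miR-196-1-3p 133 RPM and gga-miR-10b-3p 99.2 RPM in their highest samples. gga-miR-196-2-3p was the rarest member, with 0 reads in 38 of the 60 samples and a highest level of 0.420 RPM in ovary, where its 3 samples held 3, 5 and 5 reads. It stayed at or below 3 reads in the other samples with whole reads, and it is not described further.

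Between the whole embryos of E5 and E7, miR-196 increased most among the members. gga-miR-196-5p was at 289, 102 and 96.8 RPM at E5 and at 1007, 792 and 822 RPM at E7, so that the groups did not overlap. Its log2 change was 2.60 ± 0.41 (SE, n = 3 per group, adjusted p = 0.00644 by limma on log2(RPM + 1)). gga-miR-196-1-3p was at 14.8, 6.86 and 5.69 RPM at E5 and at 30.7, 29.3 and 21.8 RPM at E7, and increased by 1.57 ± 0.34 on the log2 scale (adjusted p = 0.0266 by limma). These were the 2 members called, where 8.72% of the 768 miRNAs tested were called, which required an unadjusted p no higher than 0.05 and a log2 change of 1 or more in size. In bulk samples, fewer cells of a type and less RNA per cell cannot be told apart.

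The miR-10 guides were already abundant at E5 and changed less. gga-miR-10a-5p was at 25893, 23464 and 23947 RPM at E5 and at 42005, 32246 and 43283 RPM at E7. gga-miR-10b-5p was at 18089, 13885 and 15307 RPM at E5 and at 30736, 23106 and 33859.5 RPM at E7. In RPM, neither miRNA overlapped between the ages. Their log2 changes were 0.67 ± 0.14 and 0.88 ± 0.18 (SE, adjusted p = 0.0233 and 0.0191 by limma), which are below the required change of 1 on that scale. Across the 211 miRNAs averaging 10 RPM or more, the median change was 0.416 in the same comparison. The listed miRNAs summed to 374615 to 437820 RPM at E5 and to 567952 to 630236 RPM at E7. As a share of them, gga-miR-10b-5p was 3.43% to 4.13% at E5 and 4.07% to 5.54% at E7, which overlapped. gga-miR-10a-5p overlapped as a share too, with 32246 RPM of 567952 RPM in E7-2 and 23947 RPM of 374615 RPM in E5-3.

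In pectoral muscle, gga-miR-10b-5p had its highest mean at E9 and lower levels in adult birds. In RPM, neighbouring muscle stages overlapped apart from E18 and E20, D100 and D300, and Y5 and Y8. It was at 21931, 11444 and 34533 RPM at E9, at 17525, 15064 and 10982 RPM at E15, and at 9287, 10038 and 5903 RPM at E20. It was at 7260.5, 13102 and 12858 RPM at D1, at 5623, 4038 and 8289 RPM at D300 and at 6224, 6729 and 7237 RPM at Y12. The mean was 22636 ± 11561 RPM at E9 and 6730.2 ± 506 RPM at Y12 (SD, n = 3 each). All 3 samples of Y12 were below all 3 of E9, and no stage after E9 had a mean above that of E9.

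In RPM, the course of gga-miR-10a-5p in muscle was lower in the middle than at either end. It was at 16017, 12093 and 38449.6 RPM at E9, at 9861, 3628 and 6177 RPM at E12 and was lowest at E15, with 5827, 4588 and 3914 RPM. It was at 6900.2, 12062 and 10939 RPM at D1, at 15056, 10638 and 14493 RPM at D300 and at 18157, 11893 and 16588 RPM at Y3. At Y12 it was at 10425, 11066 and 11526 RPM. Thus, in RPM, every sample from D100 onward lay above every sample of E15, E18 and E20, and the D1 samples overlapped with both sides. The listed miRNAs also summed to more in the later samples, at 657870 to 875328 RPM from D100 on. They summed to 360133 to 541736 RPM at E15, E18 and E20. As a share of the listed miRNAs, the separation did not hold. In D300-2 gga-miR-10a-5p was at 10638 RPM of a listed sum of 875328 RPM. That was a smaller share than in E18-3, at 8908 RPM of 527617 RPM.

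gga-miR-196-5p showed a different course, with higher levels up to D1 than from D36 on. It was at 1510.3, 1028 and 2521 RPM at E9, at 2894, 2562 and 2429 RPM at E18 and at 1827, 2644 and 1824 RPM at E20. At D1 it was at 388, 1559 and 1055 RPM, all below the E20 samples, a 2.1-fold difference of the means. At D36 it was at 93.7, 71.4 and 89.9 RPM, so that the lowest D1 sample was above the highest D36 sample. The exact two-sided permutation test of the log2 values of D1 against D36 gave p = 0.1, the smallest value that 3 samples against 3 allow. From D36 to Y12 the 21 samples ranged from 35.3 to 168 RPM, while the 18 samples from E9 to D1 ranged from 388 to 2894 RPM.

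The 3p arm gga-miR-196-1-3p was also lower from D36 on, and among the muscle stages its mean was highest at E9. It was at 53.5, 46.1 and 95.4 RPM at E9 and at 21.9, 34.6 and 18.1 RPM at D1. It was at 0.0940, 1.16 and 0.450 RPM at D36, which were 1, 12 and 5 reads, and ranged from 0.0817 to 5.30 RPM from D36 to Y12. The samples from E9 to D1 and those from D36 on did not overlap, since the lowest sample from E9 to D1 was at 8.11 RPM at E20.

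**Figure D1:**
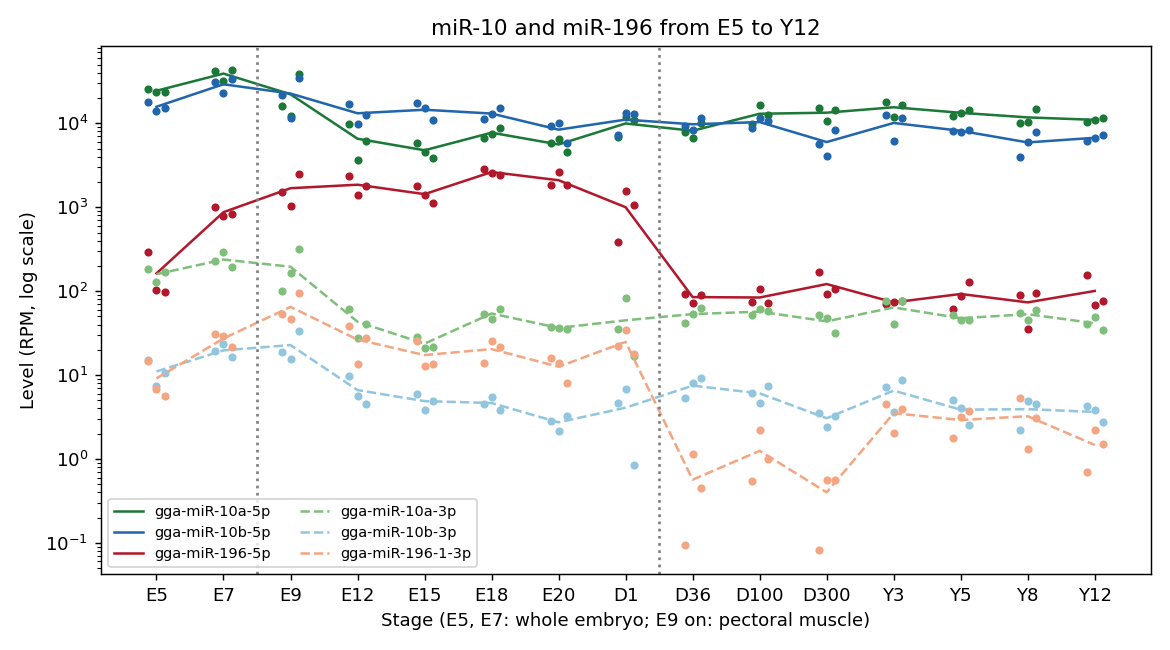
Level of 6 members in RPM on a log axis at 15 stages, with whole embryos at E5 and E7 and pectoral muscle from E9 on; points are samples, lines join the means of 3 samples, solid for 5p and dashed for 3p arms, and dotted lines mark the change from whole embryo to muscle and from D1 to D36. gga-miR-196-5p lies at 388 to 1559 RPM at D1 and at 71.4 to 93.7 RPM at D36, while gga-miR-10a-5p and gga-miR-10b-5p stay at or above 3628 RPM at every stage.

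Between the periods, both miR-196 arms decreased from Lat_E, which includes D1, to Bir_G. gga-miR-196-5p had a mean of 1790.0 ± 746 RPM in Lat_E and 90.1 ± 30.8 RPM in Bir_G (SD, n = 12 and 21), a 19.9-fold difference of the means. Its log2 change was -4.21 ± 0.22 (SE, adjusted p = 3.63e-18 by limma). gga-miR-196-1-3p had means of 18.8 ± 7.36 and 1.91 ± 1.53 RPM (SD) and a log2 change of -2.87 ± 0.25 (SE, adjusted p = 3.36e-12 by limma). These 2 of the 7 members were called, where 27.9% of the 731 miRNAs tested were called. Under the alternatives run, the log2 change of gga-miR-196-5p lay between -4.89 and -3.95, and it stayed called in each.

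The same comparison moved the miR-10 guides in opposite directions by less than 2-fold. gga-miR-10a-5p was higher in Bir_G by 0.85 ± 0.15 on the log2 scale (SE, adjusted p = 9.46e-06 by limma), and gga-miR-10b-5p was lower, with a log2 change of -0.54 ± 0.17 (SE, adjusted p = 0.00567 by limma). Across the 186 miRNAs averaging 10 RPM or more, the median change was 0.261. When each sample was rescaled to the listed miRNAs without gga-miR-133a-3p, the change of gga-miR-10b-5p was -1.21, and it was then called, while that of gga-miR-10a-5p was 0.18 (adjusted p = 0.317 by limma). The changes of gga-miR-10a-3p and gga-miR-10b-3p were 0.46 ± 0.17 and 0.23 ± 0.19, and both turned negative, to -0.19 and -0.33, with that rescaling.

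From Pre_E to Bir_G, 4 of the 7 members were called, all lower, where 36.4% of the 785 miRNAs tested were called. They were gga-miR-196-5p at -4.29 ± 0.22, gga-miR-196-1-3p at -3.97 ± 0.36, gga-miR-10b-3p at -1.20 ± 0.29 and gga-miR-10b-5p at -1.06 ± 0.23 (log2 change and SE, adjusted p = 2.81e-16, 7.9e-11, 0.00063 and 0.000201 by limma). Without E9-3 the changes of gga-miR-10b-5p and gga-miR-10b-3p were -0.85 and -0.91, and the 2 miR-196 arms were the members that stayed called. The program edgeR on whole reads, which were not recovered for E9-3, D100-3 and Y8-2, gave gga-miR-10b-5p a log2 change of -0.25, which was not called. gga-miR-10a-5p had a log2 change of 0.14 ± 0.28 between Pre_E and Bir_G (adjusted p = 0.649 by limma), which was 0.50 without E9-3. It was 1.01 and called with edgeR, which differs in its method and also lacks E9-3. In that edgeR fit 3 of the 7 members were called, where 551 of the 767 miRNAs tested were called.

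From Pre_E to Lat_E, the 3p arms of 3 hairpins were lower in RPM and the guides did not pass the test. The 3 members called of 7 were gga-miR-10b-3p at -1.43 ± 0.36, gga-miR-10a-3p at -1.21 ± 0.44 and gga-miR-196-1-3p at -1.10 ± 0.34 (log2 change and SE, adjusted p = 0.00451, 0.0348 and 0.0146 by limma), where 20.5% of the 760 miRNAs tested were called. Across the 179 miRNAs averaging 10 RPM or more, the median change was -0.841. With each sample centred on the median miRNA, 0 of the 7 members were called, and likewise 0 with edgeR, which also lacks E9-3. With limma without E9-3, only gga-miR-10b-3p was called. gga-miR-10a-5p, gga-miR-10b-5p and gga-miR-196-5p had changes of -0.71, -0.53 and -0.08 in RPM and of 0.22, 0.41 and 0.85 when centred, so no direction is given for them.

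**Figure D2:**
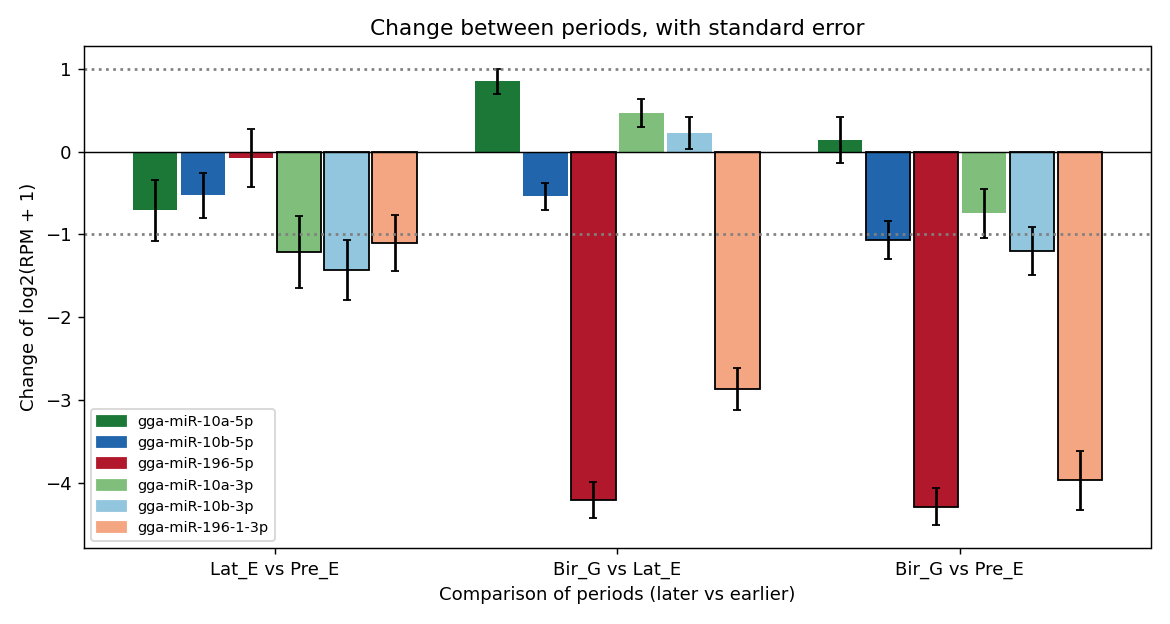
Change of log2(RPM + 1) of 6 members in 3 comparisons of periods, with the standard error of the limma fit as error bars, black outlines for members called and dotted lines at changes of 1 and -1. The bars of gga-miR-196-5p reach -4.21 and -4.29 in both comparisons with Bir_G and -0.08 from Pre_E to Lat_E.

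The degree-2 time course over the 13 muscle stages was passed by 2 of the 7 members, where 26.6% of the 816 miRNAs tested passed at an adjusted p of at most 0.05 and an R-squared of at least 0.6. gga-miR-196-5p had an R-squared of 0.730 with a linear fit and a fitted change of -6.00 on the log2 scale from E9 to Y12 (adjusted p = 2.34e-10). That line runs through the drop between D1 and D36 and overstates the fall, which was -4.29 from Pre_E to Bir_G. Fitted apart, the slope per stage was -0.083 within E9 to D1 and -0.019 within D36 to Y12. gga-miR-196-1-3p had an R-squared of 0.687 (adjusted p = 4.64e-09), which was 0.597 with a pseudocount of 0.1 and then did not pass. gga-miR-10b-5p had an R-squared of 0.496 with a linear decline of 1.39 on the log2 scale (fitted value -1.39, adjusted p = 6.27e-06), below the required R-squared.

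Within E9 to D1, 3 of the 7 members were called in a linear trend over the stages, where 32.1% of the 760 miRNAs tested were called. gga-miR-10b-3p, gga-miR-10a-3p and gga-miR-196-1-3p had fitted changes of -2.13, -1.48 and -1.32 on the log2 scale from E9 to D1 (adjusted p = 0.000932, 0.059 and 0.0363 by limma). Across miRNAs averaging 10 RPM or more, the median change was -1.42, and when samples were centred on the median miRNA those of gga-miR-10a-3p and gga-miR-196-1-3p turned to 0.06 and 0.22. Without E9-3, only gga-miR-10b-3p was called. Over the 12 alternatives run, the change of gga-miR-10b-3p lay between -2.61 and -0.59, and its call held in 10. Within D36 to Y12, 1 of the 7 members was called, where 13% of the 576 miRNAs tested were called. It was gga-miR-196-1-3p, with a fitted change of 1.11 (adjusted p = 0.0916 by limma), and its lowest samples held 1 read. It was not called without the samples numbered 1 or 3.

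The balance of the miR-10 guides was followed within each sample, where it does not depend on the total of the library. The ratio of gga-miR-10a-5p to gga-miR-10b-5p was 1.56 ± 0.13 at E5 and 1.35 ± 0.06 at E7 (SD, n = 3 each). In muscle it was 0.967 ± 0.21 at E9, 0.478 ± 0.11 at E12 and 0.331 ± 0.03 at E15. It then was 0.592 ± 0.004 at E18, 0.678 ± 0.08 at E20, 0.907 ± 0.05 at D1 and 0.833 ± 0.04 at D36. From D100 on it was above 1 in every sample, with a mean of 1.25 ± 0.15 at D100, 2.35 ± 0.52 at D300 and 1.64 ± 0.04 at Y12. All 3 samples of each stage from E12 to D36 held more miR-10b-5p than miR-10a-5p. The ratio varied less between replicates than the levels at D1, where gga-miR-10a-5p ranged from 6900.2 to 12062 RPM, gga-miR-10b-5p from 7260.5 to 13102 RPM and their ratio from 0.851 to 0.950.

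The log2 ratio of gga-miR-10a-5p to gga-miR-10b-5p had a mean of -0.77 ± 0.56 in Lat_E and 0.62 ± 0.49 in Bir_G (SD, n = 12 and 21), a difference of 1.39. The permutation test of 100000 draws gave p = 1e-05, the smallest they can give, and an adjusted p of 5e-05 over the 15 ratio comparisons made. With stage means as units the difference was the same and the exact permutation test gave an adjusted p of 0.0303. The 3 samples of D36 were the only ones of Bir_G with a log2 ratio below 0. From Pre_E to Lat_E the ratio did not pass the test, with a difference of -0.19 (exact permutation test, adjusted p = 0.53).

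**Figure D3:**
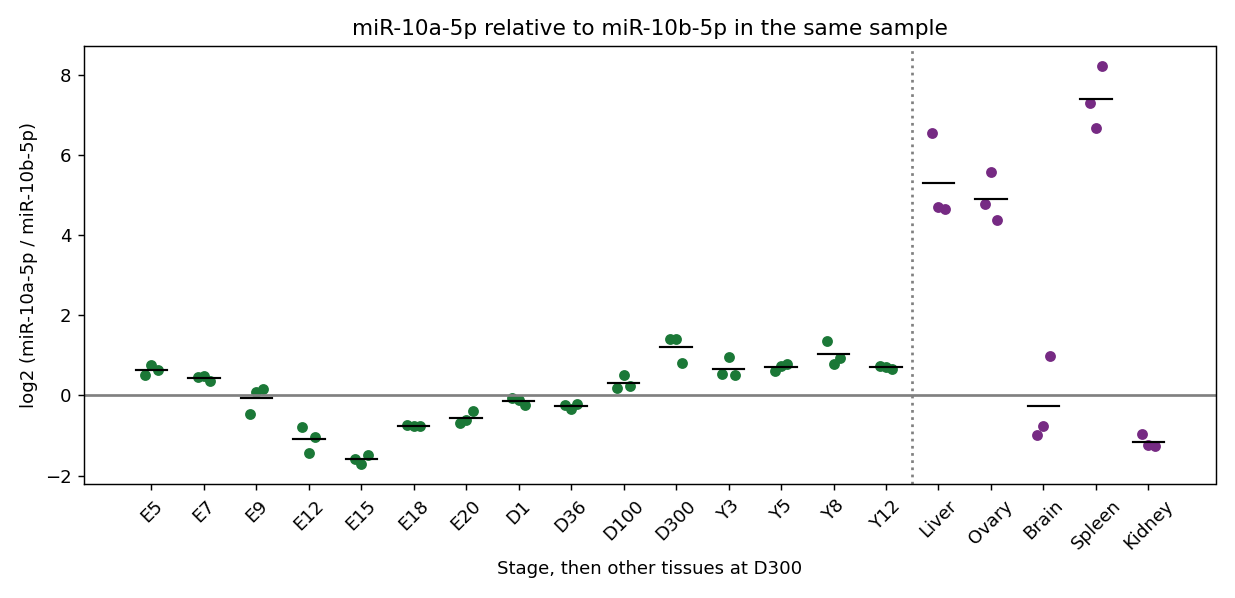
log2 ratio of gga-miR-10a-5p to gga-miR-10b-5p in every sample, by stage (green) and for 5 other tissues at D300 (purple), with bars at the mean of 3 samples and a line at equal levels. The ratio is lowest among muscle stages at E15, above 0 in every muscle sample from D100 on, and reaches its highest values in spleen.

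The ratio of gga-miR-196-5p to gga-miR-10b-5p was lower in Bir_G than in Lat_E, with a difference of -3.67 on the log2 scale (permutation test, adjusted p = 5e-05 over the 15 ratio comparisons), and the ranges of the periods did not overlap. Read as levels, gga-miR-10b-5p exceeded gga-miR-196-5p by 4.04-fold at E20, 13.1-fold at D1, 115-fold at D36 and 52.2-fold at D300 on average.

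The ratio of guide to 3p arm was followed in the same way, since for miR-10a and miR-10b both arms are cut from 1 hairpin. For miR-10a the log2 ratio (with 1 RPM added to each arm) was 6.98 ± 0.43 in Pre_E, 7.48 ± 0.61 in Lat_E and 7.87 ± 0.40 in Bir_G (SD). It was higher in Bir_G than in Pre_E by 0.88 (exact permutation test, adjusted p = 0.00027), and 0.0833 was the adjusted p with stage means as units. For miR-10b it was 10.30 ± 0.60, 11.20 ± 0.66 and 10.44 ± 0.34, with the highest mean in Lat_E. The difference from Lat_E to Bir_G was -0.77 (permutation test, adjusted p = 0.000225), and 0.0227 was the adjusted p with stage means as units. The difference of 0.90 from Pre_E to Lat_E had an adjusted p of 0.02 by the exact permutation test, which was 0.0871 and 0.201 without the samples numbered 1 and 2, and 0.125 with stage means as units. Sample D1-3 had the highest ratio for miR-10b of all samples, with 0.846 RPM of gga-miR-10b-3p beside 12858 RPM of gga-miR-10b-5p and 16.8 RPM of gga-miR-10a-3p beside 10939 RPM of gga-miR-10a-5p.

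For miR-196, the reads of gga-miR-196-5p were not separated by hairpin and can come from 3 hairpins, while gga-miR-196-1-3p comes from 1, so their ratio is not that of the arms of a single hairpin. The log2 ratio of gga-miR-196-5p to gga-miR-196-1-3p was 6.43 ± 1.01 in Lat_E and 5.09 ± 0.98 in Bir_G (SD), a difference of -1.34 (permutation test, adjusted p = 0.00186). With 0.1 RPM added in place of 1 the difference was -0.57 and the adjusted p was 0.318, and it was 0.076 without the samples numbered 2 and 0.119 with stage means as units. In D300-1 and D36-1 the 3p arm was at 1 read. From Pre_E to Lat_E the log2 ratio differed by 1.02 and did not pass (exact permutation test, adjusted p = 0.0777, and 0.364 with stage means as units). As plain ratios, gga-miR-196-5p exceeded gga-miR-196-1-3p by 25.7-fold at E9, 177-fold at E20 and 40.4-fold at D1 on average.

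In adult tissues the miR-10 and miR-196 members were tested against D300 muscle. Kidney held the highest level of gga-miR-10b-5p in the series, at 92752, 272211 and 299477 RPM against 5623, 4038 and 8289 RPM in D300 muscle. It was there the most abundant known miRNA and made up 22.6% to 35.3% of the listed RPM. Its log2 change against muscle was 5.10 ± 0.47 (SE, n = 3 per group, adjusted p = 5.58e-05 by limma). Kidney-1 was lowest, as was its listed sum, and without it the change was 5.64. The 3p arm gga-miR-10b-3p was at 42.9, 99.2 and 75.2 RPM in kidney and at 3.51, 2.42 and 3.25 RPM in muscle, and differed by 4.11 ± 0.35 on the log2 scale (adjusted p = 3.43e-05 by limma).

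The other guides were higher in kidney too. gga-miR-10a-5p was at 47528, 114583 and 124055 RPM in kidney and at 15056, 10638 and 14493 RPM in muscle, a log2 change of 2.73 ± 0.38 (SE, adjusted p = 0.000539 by limma). Its 3p arm gga-miR-10a-3p was at 183, 235 and 203 RPM in kidney and at 51.9, 47.3 and 31.8 RPM in muscle. The log2 change of this 3p arm was 2.24. The guide exceeded it by 259 to 612-fold in kidney and by 225 to 456-fold in muscle. gga-miR-196-5p was at 1042, 962 and 909 RPM in kidney and at 168, 91.3 and 105 RPM in muscle, a log2 change of 3.04 ± 0.26 (SE, adjusted p = 3.22e-05 by limma). gga-miR-196-1-3p was at 112, 133 and 109 RPM in kidney, against 1, 7 and 7 reads in the muscle samples. In all, 6 of the 7 members were called higher in kidney, where 32.2% of the 419 miRNAs tested were called in either direction. Across the 154 miRNAs averaging 10 RPM or more, the median change was -0.56. All 6 stayed called under each alternative run, including those without Kidney-1.

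Spleen and ovary were high in miR-10a and not in miR-10b. gga-miR-10a-5p was at 109518, 48111 and 81085 RPM in spleen and at 77808, 90449.7 and 89119.7 RPM in ovary, all above the muscle samples. The log2 changes were 2.51 ± 0.31 in spleen and 2.69 ± 0.17 in ovary (SE, adjusted p = 0.000632 and 1.63e-05 by limma). gga-miR-10a-3p moved the same way, with 389, 302 and 358 RPM in spleen and 527, 384 and 273 RPM in ovary against 51.9, 47.3 and 31.8 RPM in muscle. Its log2 changes were 2.99 ± 0.24 and 3.12 ± 0.30 (SE, adjusted p = 8.49e-05 and 0.000141 by limma).

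gga-miR-10b-5p was at 690.3, 467 and 270.0 RPM in spleen, all below the muscle samples, a log2 change of -3.69 ± 0.39 (SE, adjusted p = 0.000335 by limma). gga-miR-10b-3p was at 5, 3 and 2 reads in spleen, and the ratio of guide to 3p arm in these samples was 1574 to 1988, within the range of 1047 to 3302 of the muscle samples of Bir_G. In ovary gga-miR-10b-5p was at 2837, 1897 and 4303 RPM and overlapped with muscle. Its log2 change of -1.01 ± 0.36 was called on the unadjusted p of 0.0248 (adjusted p = 0.0567 by limma), and it was not called without Ovary-1, Ovary-2, D300-1 or D300-3, where it was -1.004, -0.71, -1.02 and -0.74.

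miR-196 separated ovary from spleen. gga-miR-196-5p was at 155, 190.4 and 327 RPM in ovary and at 3.47, 2.66 and 2.40 RPM in spleen, which were 40, 34 and 28 reads. Against muscle the log2 change was 0.85 ± 0.35 in ovary (SE, adjusted p = 0.086 by limma, not called) and -4.95 ± 0.30 in spleen (adjusted p = 2.42e-05 by limma). gga-miR-196-1-3p was at 8.60, 6.81 and 11.01 RPM in ovary, above its muscle samples, with a log2 change of 2.81 ± 0.29 (adjusted p = 0.000195 by limma). Thus 4 of the 7 members were called in ovary, where 32.2% of the 435 miRNAs tested were called, and 5 of the 7 in spleen, where 33.8% of 423 were.

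Liver kept miR-10a near the muscle level and held little of the others. gga-miR-10a-5p was at 8968, 10782 and 10665 RPM in liver and overlapped with muscle, with a log2 change of -0.39 ± 0.19 (SE, adjusted p = 0.143 by limma). Rescaled to the listed miRNAs without gga-miR-133a-3p, the change was -1.03 and was called. gga-miR-10b-5p was at 94.9, 410.1 and 426 RPM and lower than in muscle, at -4.48 ± 0.61 on the log2 scale (adjusted p = 0.00107 by limma). gga-miR-10b-3p was at 1, 0 and 1 reads. gga-miR-196-5p was at 2.71, 3.90 and 1.77 RPM, or 30, 43 and 19 reads, and differed from muscle by -5.001 ± 0.34 (adjusted p = 4.15e-05 by limma). In liver 3 of the 7 members were called, all lower, where 31.9% of the 432 miRNAs tested were called.

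Among the tissues of D300, brain had the lowest mean of each guide. For gga-miR-10b-5p and gga-miR-196-5p its samples overlapped with those of liver and spleen. gga-miR-10a-5p was at 246, 220.2 and 93.2 RPM, a log2 change of -6.26 ± 0.36 against muscle (SE, adjusted p = 2.04e-06 by limma). gga-miR-10b-5p was at 485, 375 and 47.3 RPM and gga-miR-196-5p at 3.997, 1.99 and 0.743 RPM, with log2 changes of -4.79 ± 0.79 and -5.32 ± 0.42 (adjusted p = 0.00097 and 1.33e-05 by limma). Brain-3 was lowest for each of these guides, and without it the change of gga-miR-10b-5p was still called. Two-arm calls were made for miR-10, with gga-miR-10a-3p at -4.44 and gga-miR-10b-3p at -1.76 on the log2 scale. In brain gga-miR-10b-3p held 5, 3 and 0 reads. The 5 members called in brain were all lower, where 38.6% of the 505 miRNAs tested were called. All 7 members together made up 0.0155% to 0.0847% of the listed RPM in brain, 1.69% to 2.67% in D300 muscle and 34.5% to 50.1% in kidney.

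**Figure D4:**
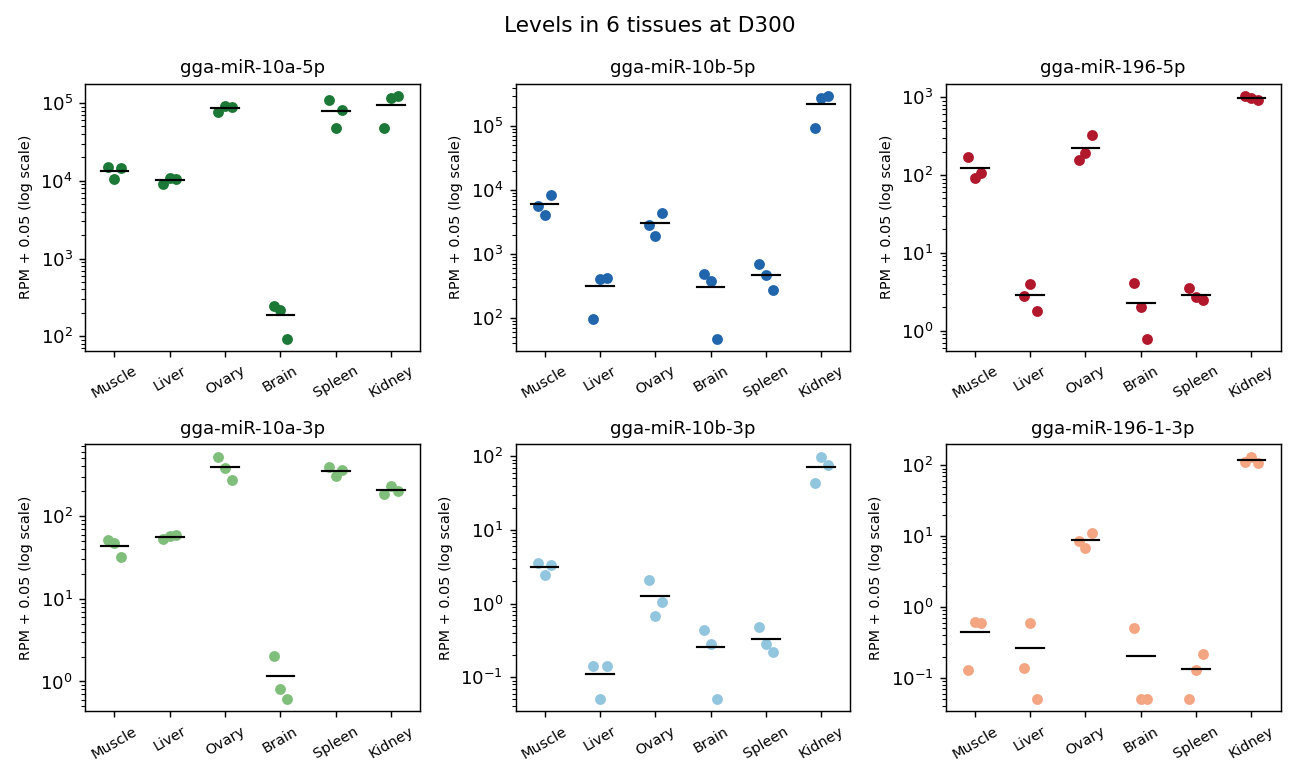
Levels of 6 members in 6 tissues at D300, in RPM with 0.05 added for display on a log axis, with 3 samples per tissue as points and a bar at their mean; each panel has its own axis. Kidney lies above the other tissues for gga-miR-10b-5p, gga-miR-196-5p and both of their 3p arms, while gga-miR-10a-5p overlaps between kidney, ovary and spleen.

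By mean level, gga-miR-10b-5p ran from kidney through muscle, ovary, spleen and liver to brain. Kidney did not overlap with muscle, nor ovary with spleen, while muscle and ovary overlapped and spleen, liver and brain overlapped in turn. gga-miR-10a-5p ran from kidney through ovary, spleen, muscle and liver to brain. Kidney, ovary and spleen overlapped in turn, as did muscle and liver, with a gap between spleen and muscle and between liver and brain. gga-miR-196-5p ran from kidney through ovary, muscle, spleen and liver to brain, with gaps between kidney and ovary and between muscle and spleen, and no others. Where neighbours did not overlap, the exact two-sided permutation test gave p = 0.1, the smallest that 3 samples against 3 allow.

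The ratio of the miR-10 guides spanned a wider range over the tissues than over the muscle stages. gga-miR-10a-5p exceeded gga-miR-10b-5p by 103 to 300.3-fold in the spleen samples, by 25.1 to 94.5-fold in liver and by 20.7 to 47.7-fold in ovary. The ratio was 1.75 to 2.68 in D300 muscle, 0.508 to 1.97 in brain and 0.414 to 0.512 in kidney. Spleen did not overlap with any other tissue, liver and ovary overlapped with each other, and the kidney samples lay in the range of the muscle samples of E12. As a share of both guides, gga-miR-10b-5p was 0.332% to 0.961% in spleen and 66.1% to 70.7% in kidney.

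Markers of other cell types also differed between the periods and the tissues. The epithelial markers (gga-miR-200a-3p, gga-miR-200b-3p and gga-miR-205a, 3 of 3 found) summed to 1411 to 57209 RPM in Pre_E, 101 to 15892 RPM in Lat_E and 12.8 to 531 RPM in Bir_G, and to 2811 to 5673 RPM in kidney against 11.8 to 669 RPM in the other tissues of D300. These markers did not move as one. At E9, gga-miR-205a was at 26844 to 40713 RPM and gga-miR-200b-3p at 448 to 613 RPM. In kidney, gga-miR-205a was at 19.2 to 41.0 RPM, below its 204 to 525 RPM in D300 muscle. The mesenchymal and cartilage markers (gga-miR-199-3p, gga-miR-199-5p, gga-miR-214 and gga-miR-140-3p, 4 of 4 found) summed to 46564 to 116548 RPM in Pre_E, 9363 to 56345 RPM in Lat_E and 10908 to 35433 RPM in Bir_G. The blood markers (gga-miR-144-3p, gga-miR-142-5p and gga-miR-142-3p, 3 of 4 found, without gga-miR-451) summed to 61.0 to 295 RPM in Lat_E, 2047 to 9638 RPM in Bir_G and 78188 to 130256 RPM in spleen. The endothelial marker gga-miR-126-3p was at 821 to 4001 RPM in Lat_E and 4104 to 7920.3 RPM in Bir_G. The muscle markers summed to 7887 to 74534 RPM in Pre_E, 71489 to 224864 RPM in Lat_E and 211712 to 393778 RPM in Bir_G. The gonad markers gga-miR-202-3p and gga-miR-202-5p summed to 644 to 1221 RPM in ovary and to at most 3.71 RPM elsewhere. The part of these cell types in the levels of miR-10 and miR-196 was not tested.

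The related miRNAs gga-miR-99a-5p, gga-miR-100-5p and gga-miR-125b-5p belong to the same ancient group of miRNAs as miR-10 and lie outside the Hox clusters. From Lat_E to Bir_G, 2 of the 3 were called, both lower, with log2 changes of -2.04 for gga-miR-100-5p and -1.88 for gga-miR-125b-5p (adjusted p = 4.16e-09 and 3.91e-16 by limma), and gga-miR-99a-5p was at -0.73. From Pre_E to Bir_G all 3 were called lower, at -3.83, -2.78 and -2.21 for gga-miR-100-5p, gga-miR-125b-5p and gga-miR-99a-5p. In kidney against muscle gga-miR-100-5p was higher by 2.32, gga-miR-99a-5p lower at -1.08, and gga-miR-125b-5p was at -0.48 and not called. In brain, where every called member of miR-10 and miR-196 was lower, gga-miR-100-5p and gga-miR-125b-5p were higher than in muscle by 3.34 and 2.55 (adjusted p = 4.43e-06 and 3.56e-06 by limma).

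The likeness of patterns was described by Pearson's r over the 20 group means of log2(RPM + 1), among 258 other known miRNAs with a group mean of at least 10 RPM. The group means share tissues and neighbouring ages, so the points are not independent. The patterns most like that of gga-miR-10b-5p were those of gga-miR-30c-5p (r = 0.612), gga-miR-3536 (r = 0.524) and gga-miR-200b-5p (r = 0.503). For gga-miR-196-5p they were gga-miR-30c-5p (r = 0.839), gga-miR-214 (r = 0.783) and gga-miR-206 (r = 0.761), and for gga-miR-10a-5p gga-miR-1454 (r = 0.575), gga-miR-199-5p (r = 0.571) and gga-miR-31-3p (r = 0.514). Among the members, gga-miR-10a-5p and gga-miR-10b-5p each followed their own 3p arm most closely, with r = 0.967 and 0.941. gga-miR-196-5p, whose reads were not separated by hairpin, followed gga-miR-196-1-3p most closely (r = 0.856). gga-miR-10b-5p was closer to gga-miR-196-5p (r = 0.810) than to gga-miR-10a-5p (r = 0.394).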

How the data were processed

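Small RNA of 60 samples was sequenced on an Illumina platform. The authors filtered and trimmed the reads (Cutadapt), kept fragments of miRNA length, removed other small RNAs by alignment and assigned the rest to chicken miRNAs of miRBase. The genome build is not given in the sources used here. They deposited 2 tables of values called TPM, which are RPM values, since in 56 samples 100% of the low values were whole multiples of 1 read within 0.1 read. In E7-2, E9-3, D100-3 and Y8-2 that step could not be told from rounding. The design had been written for TPM, and its tests were kept, since both are normalized values. 1 unnamed column was not used. No 2 of the 52 pairs of replicates compared agreed within sampling noise.

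Groups came from the sample titles. Comparisons used limma 3.58.1 (R 4.3.3) on log2(RPM + 1), which understates changes of low miRNAs, over all miRNAs above 0 in a sample compared, with Benjamini-Hochberg adjustment. Calls required an unadjusted p no higher than 0.05 and a change of 1 or more in size. For the time course, a polynomial of degree 2 in stage order was fitted by least squares. Ratios were compared by exact two-sided permutation tests, or 100000 permutations where both groups held 10 samples or more. edgeR 4.0.16 was run on whole reads of 56 samples as an alternative. Every member is named, with values in selected groups for 5p arms and for 3p arms reaching 10 RPM in a group mean. The members, lists and tests were chosen with earlier results of these data known. The fits were tested on simulated data. SciPy 1.17.1 and Matplotlib 3.10.9 were also used. Mature sequences were not used here.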

Additional observations from a re-analysis of the deposited data

Results flagged for a closer look

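The level of gga-miR-10a-5p in E9-3, 38449.6 RPM, stood apart from the other 5 samples of Pre_E, with a gap to the next sample of 0.644 of the whole range, which is past the limit of Dixon's test for 6 samples. Chance passes this limit in about 1 of 20 groups when all samples come from 1 population. The 6 samples here joined E9 and E12, with means of 22186 and 6555 RPM, so that rate does not strictly apply.

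The slope per stage differed between D36 to Y12 and E9 to D1 for 2 of the 7 members, with 816 miRNAs tested. The share of all miRNAs that differed was not counted, so the number of members is not read as a result. For gga-miR-10b-3p the later slope minus the earlier was 0.30 on the log2 scale (-0.12 against -0.43, adjusted p = 0.0116 by limma). For gga-miR-196-1-3p it was 0.45 (0.19 against -0.26, adjusted p = 0.00312 by limma). Across the miRNAs averaging 10 RPM or more, the median of this difference was 0.163. With samples centred on the median miRNA the differences were 0.17 and 0.31 (adjusted p = 0.139 and 0.0318), rescaled without gga-miR-133a-3p 0.12 and 0.29 (adjusted p = 0.389 and 0.0969), and without E9-3 0.23 and 0.37 (adjusted p = 0.0523 and 0.0133 by limma). These 3 settings were chosen after the data were seen.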

How the results depend on the processing

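Of the 38 called log2 changes of members, 28 kept their direction and their call under every alternative run for them, among them 22 of the 23 against D300 muscle and both miR-196 arms in the comparisons with Bir_G. The exception among tissues was gga-miR-10b-5p in ovary. The changes up to D1 depend on the scaling. Centring samples on the median miRNA, rescaling without gga-miR-133a-3p, and edgeR each left 0 members called from Pre_E to Lat_E, in place of 3. Over all miRNAs they called 129 of 760, 148 of 760 and 243 of 744. The edgeR fit also lacks E9-3, so it changed both the method and the samples. As log2 changes they gave gga-miR-10a-5p 0.22, 0.041 and 0.41, gga-miR-10b-5p 0.41, 0.23 and 0.42, and gga-miR-196-5p 0.85, 0.67 and 0.81. Within E9 to D1 they gave gga-miR-10a-5p 0.86, 0.53 and 1.06, gga-miR-10b-5p 0.57, 0.24 and 0.67, and gga-miR-196-5p 1.13, 0.79 and 1.25. There edgeR called gga-miR-10a-5p and gga-miR-196-5p higher (unadjusted p = 0.019 and 0.0178, adjusted p = 0.0552 and 0.0525 by edgeR). It called 302 of the 744 miRNAs tested. Centring called gga-miR-196-5p higher (unadjusted p = 0.0239 by limma), where 469 of the 760 miRNAs tested were called. Centring also turned gga-miR-10a-3p to 0.056 and gga-miR-196-1-3p to 0.22 there, and edgeR the latter to 0.27. Rescaling left 1 of 3 members called in that trend, where 227 of the 760 miRNAs tested were called. The cause was not tested.

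Centring left 2 of 4 members called from Pre_E to Bir_G, where 268 of the 785 miRNAs tested were called. It left 1 of 2 in the time course, as did rescaling, a pseudocount of 0.1 and an R-squared limit of 0.7. Within D36 to Y12, centring turned gga-miR-10a-3p to 0.10 and gga-miR-196-5p to 0.22, and edgeR gave the latter 0.14. In that trend 0 members were called on adjusted p or with stage means as units, where 64 and 63 of 576 miRNAs were. Rescaling turned gga-miR-10a-3p to -0.19 and gga-miR-10b-3p to -0.33 from Lat_E to Bir_G, gga-miR-10a-3p to -0.0018 from E5 to E7 and to -0.24 in liver, where centring gave -0.13. Stage means as units left 1 of 3 called from Pre_E to Lat_E and within E9 to D1, and 3 of the 8 ratio differences. Over all miRNAs, 129 and 210 of 760 were called in these 2 comparisons. A pseudocount of 0.1 turned the log2 ratio of gga-miR-196-5p to gga-miR-196-1-3p to 0.49 from Pre_E to Bir_G.

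Leaving out the samples of each number in turn gave 1 to 4 members called from Pre_E to Lat_E and within E9 to D1. It gave 0 to 1 within D36 to Y12 and 6 to 9 ratio differences. Over all miRNAs, these fits called 136 to 177 of 720 to 722 from Pre_E to Lat_E and 211 to 244 within E9 to D1. Within D36 to Y12 they called 63 to 76 of 544 to 559. The change of gga-miR-196-5p from Pre_E to Lat_E then ran from -0.47 to 0.13, within E9 to D1 from -1.1 to 0.11 and within D36 to Y12 from -0.32 to 0.19, and that of gga-miR-10a-5p from Pre_E to Bir_G from -0.16 to 0.31. Leaving out E9-3 alone was chosen after the data were seen. It left 1 member called from Pre_E to Lat_E, 2 from Pre_E to Bir_G and 1 within E9 to D1. Over all miRNAs, 136 of 744, 281 of 768 and 229 of 744 were then called. Without E9-3, gga-miR-196-5p was at 0.04 from Pre_E to Lat_E and gga-miR-10a-5p at 0.50 from Pre_E to Bir_G. Same-numbered samples had deviations with r above 0.1 in 77 of 234 pairs of muscle samples. Over these pairs r ran from -0.715 to 0.588, with a median of -0.02. An r above 0.1 was also found in 3 of 15 pairs between tissues and muscle and in 0 of 3 between embryos. The study slaughtered birds to collect tissues, so samples of different ages came from different birds. Whether the replicate number pairs the D300 tissues of the same bird was not tested. With the replicate block 2 members were called from Lat_E to Bir_G and 6 in kidney, and it changed no call of a member. Over all miRNAs, 203 of 731 and 139 of 419 were called with that block. Over all miRNAs, edgeR called 243 of 744 from Pre_E to Lat_E and 519 of 729 from Lat_E to Bir_G. It called 551 of 767 from Pre_E to Bir_G and 127 of 570 within D36 to Y12. By limma these were 156 of 760, 204 of 731, 286 of 785 and 75 of 576. Depth limits the 3p arm of miR-196 in adult muscle, liver, brain and spleen.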
